A study of Mus musculus with 3 samples.

Results

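The vascular endothelial growth factor (VEGF) genes studied here are 3 ligands (*Vegfa*, *Vegfc* and *Pgf*) and 5 receptors (*Flt1*, *Kdr*, *Flt4*, *Nrp1* and *Nrp2*), taken by name as 8 of the 32285 genes counted in single cells of the mouse lacrimal gland (LG). All 8 were matched by symbol, and together they make up the best-known signal between a tissue and its blood vessels. The LG was dissociated from C57BL/6J mice aged 2 months, with no treatment and no engineered allele named in the labels. Each library pooled 6 LGs of 3 mice, and there was 1 female library and 2 male libraries (male library 1 and male library 2), and values in a row of 3 keep the order female, male 1, male 2. Both male libraries were prepared elsewhere and on a different day, so that sex cannot be told apart from the sequencing core or the day, and no test of sex was made.

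VEGF ligands are secreted proteins that bind receptor tyrosine kinases on the vessel wall. *Vegfa* drives vessel growth and permeability mainly through the kinase encoded by *Kdr* (VEGFR2). *Flt1* (VEGFR1) binds *Vegfa* and *Pgf* tightly but signals weakly, and its soluble form acts as a trap for ligand. *Vegfc* acts through *Flt4* (VEGFR3), which is best known from lymphatic vessels but is also made by fenestrated and sprouting blood vessels. The neuropilins *Nrp1* and *Nrp2* lack a kinase domain, act as co-receptors for VEGF ligands and also bind class 3 semaphorins. In an exocrine gland the capillaries supply the fluid that acinar cells turn into secretion.

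After filtering, 7652, 5295 and 5397 cells were kept in the female, male 1 and male 2 libraries, with 55375501, 37754290 and 41316199 unique molecular identifiers (UMIs, each standing for 1 captured RNA molecule) the median cell having 3254, 1885 and 1789 UMIs. Between 8 and 13 cell barcodes were shared by any pair of libraries. Cells were clustered without the 8 genes or their pathway genes among the features, and clusters were named from other markers, with “-like” for a name given that way. Of the classes, 10 had at least 10 cells in each library: endothelial, mural, fibroblast, macrophage, dendritic, lymphoid, myoepithelial (MEC), duct, acinar and *Ltf*+-like cells. The *Ltf*+-like class joins a pair of clusters that both scored highest for *Ltf*, *Sftpd* and *Dmbt1*. The larger (87, 374 and 349 cells) was led by *Cyp2f2* and *Sftpd*. The smaller (70, 114 and 129 cells) was led by *Amy1* and *Chia1* and had little of the duct markers, with *Krt7* at 7.46 CPM of all UMIs against 108.6 in the larger cluster and 209.6 in duct-like cells. Its *Ltf* averaged 532 CPM of all UMIs (16.7 to 875 over the libraries), against 6949 in the larger cluster and 9.45 in acinar-like cells. Of the acinar markers, its *Lpo*, *Bhlha15* and *Aqp5* (555, 47.8 and 166 CPM of all UMIs) averaged above acinar-like cells (501, 46.3 and 84.0). Its *Prom2* and *Pigr* (29.7 and 72.1) averaged below them (56.7 and 91.4). *Chia1* was also among the leading genes of an acinar-like cluster, so the class is not called duct. Tear-product RNA made up 90.0 to 91.9% of the UMIs in uncalled barcodes, so levels are given as CPM, UMI counts scaled to a common total, over UMIs outside 126 tear-product genes. Cells of 1 library come from 1 suspension, so the replicate is the library, and nothing says how alike the pools are beyond the libraries themselves. All 7 endothelial naming markers were highest in the endothelial-like class. As an example, *Pecam1* averaged 949 CPM there and 22.6 CPM in the next class.

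The genes lie on 6 chromosomes of mm10, as annotated by GENCODE. *Flt1* (chr5:147561604-147726011) and *Kdr* (chr5:75932827-75978458) are both on the minus strand of chromosome 5. *Flt4* is on chromosome 11 (49609263 to 49652739, plus strand), *Nrp1* on chromosome 8 (128358604 to 128503363, plus strand) and *Nrp2* on chromosome 1 (62703285 to 62818695, plus strand). *Vegfa* is on chromosome 17 (46016993 to 46032369, minus strand), *Vegfc* on chromosome 8 (54077606 to 54187096, plus strand) and *Pgf* on chromosome 12 (85166635 to 85177790, minus strand). *Nrp1* holds *Mir1903* and *Nrp2* overlaps *Gm29083* and *Gm37121*, while the other 6 overlap no annotated gene.

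The bases just upstream of *Flt1* and *Kdr* are shown because these receptor genes had over 90% of their UMIs in one and the same cell class in the mean of the libraries. So did *Flt4*, which rests on only 134 UMIs and is not shown. They are RefSeq promoter windows on GRCm38.p6 (the assembly behind mm10), given 5′ to 3′ on the minus strand, at chr5:147726012-147726261 for *Flt1* and chr5:75978459-75978705 for *Kdr*. Capitals mark GGAA or its complement TTCC, the core of sites bound by ETS factors, which are known in endothelial genes.
Flt1: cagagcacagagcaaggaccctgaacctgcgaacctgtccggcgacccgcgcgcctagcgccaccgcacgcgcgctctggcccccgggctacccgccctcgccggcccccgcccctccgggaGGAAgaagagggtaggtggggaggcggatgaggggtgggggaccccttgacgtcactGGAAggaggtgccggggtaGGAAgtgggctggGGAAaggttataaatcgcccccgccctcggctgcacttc
Kdr: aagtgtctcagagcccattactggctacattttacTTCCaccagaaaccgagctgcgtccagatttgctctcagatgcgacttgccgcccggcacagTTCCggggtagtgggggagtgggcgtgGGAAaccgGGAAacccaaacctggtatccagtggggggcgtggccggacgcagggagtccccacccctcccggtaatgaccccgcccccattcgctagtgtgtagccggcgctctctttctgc
Each printed run holds 4 such cores, in 250 bases for *Flt1* and 247 bases for *Kdr*. The motif is common: 96.0% of all 32851 promoter windows of 300 bases hold GGAA on either strand. The letters ACGTG, the core of hypoxia response elements, were searched on both strands in the same way and are in 19.6% of windows. They were in none of the windows of *Flt1*, *Kdr*, *Flt4*, *Nrp1*, *Nrp2*, *Vegfc* or *Pgf*, and in 1 of the 2 windows of *Vegfa*.

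The first question was which cells of the LG carried the receptors. Endothelial-like cells did: 6 of the 8 genes (all 5 receptors and *Vegfc*) were called higher there than in the mean of the other 9 classes, 1 (*Pgf*) was called lower and *Vegfa* was not called. Over all 9952 genes tested in this comparison, 23.2% were called higher and 9.69% lower. The test was edgeR's quasi-likelihood test on UMIs summed by class and library, with library as a block and a call at an adjusted p under 0.05. Where a gene had no UMI in some class the fitted change rests on a small added count, so sizes are given below against all other cells of the same library, which is the alternative reference.

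*Flt1* stood at 3372 CPM in endothelial-like cells of the female library, 2348 CPM in male library 1 and 1622 CPM in male library 2. The next class, duct-like cells, had 119, 57.3 and 62.5 CPM in the same order, so the classes were far apart in each library. Against all other cells, *Flt1* was higher in endothelial-like cells by 7.30 ± 0.22 (SE) on the log2 scale, with an edgeR adjusted p of 5.30e-22.

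*Kdr*, the main signalling receptor for *Vegfa*, had 1574, 1000 and 760 CPM in endothelial-like cells of the female, male 1 and male 2 libraries. No other class averaged more than 7.51 CPM (macrophage-like cells), and mural-like cells, which wrap the vessels, had no UMI in any library. Within the fibroblast-like class, a small subset (54, 31 and 23 cells) had 17, 0 and 1 *Kdr* UMIs. In the female library this was 127 CPM, where free RNA would give 0.0544 UMIs. The log2 difference from all other cells was 8.36 ± 0.26 (SE), with an edgeR adjusted p of 2.89e-23.

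*Flt4* was scarce, with 134 UMIs in all kept cells. Endothelial-like cells held 107, 12 and 7 of them in the female, male 1 and male 2 libraries, which gave 61.9, 38.7 and 31.1 CPM. The rest were 8 UMIs of the female library, and 6 of the 10 classes had none. These include mural-like cells, which had the fewest UMIs outside tear-product genes (108156, 33108 and 30254), so their 0 bounds the level least. *Flt4* was higher than in all other cells by 7.40 ± 0.55 (SE) on the log2 scale, with an edgeR adjusted p of 1.06e-13. Its call against the mean of the classes did not hold with DESeq2 (adjusted p = 0.156), and without the female library it fell under the filter on low counts.

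No cluster was named as lymphatic endothelium, where *Flt4* is classically found. Its markers were at or near 0 in endothelial-like cells: *Prox1* had 2 UMIs in the female library and none in the male libraries, *Lyve1* had 2 UMIs in male library 1 and *Mmrn1* had 1 UMI in male library 1. *Pdpn* had 2 UMIs and *Reln* 3 UMIs in all. The 8 UMIs of *Ccl21a* lay in 1 cell.

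**Figure D1:**
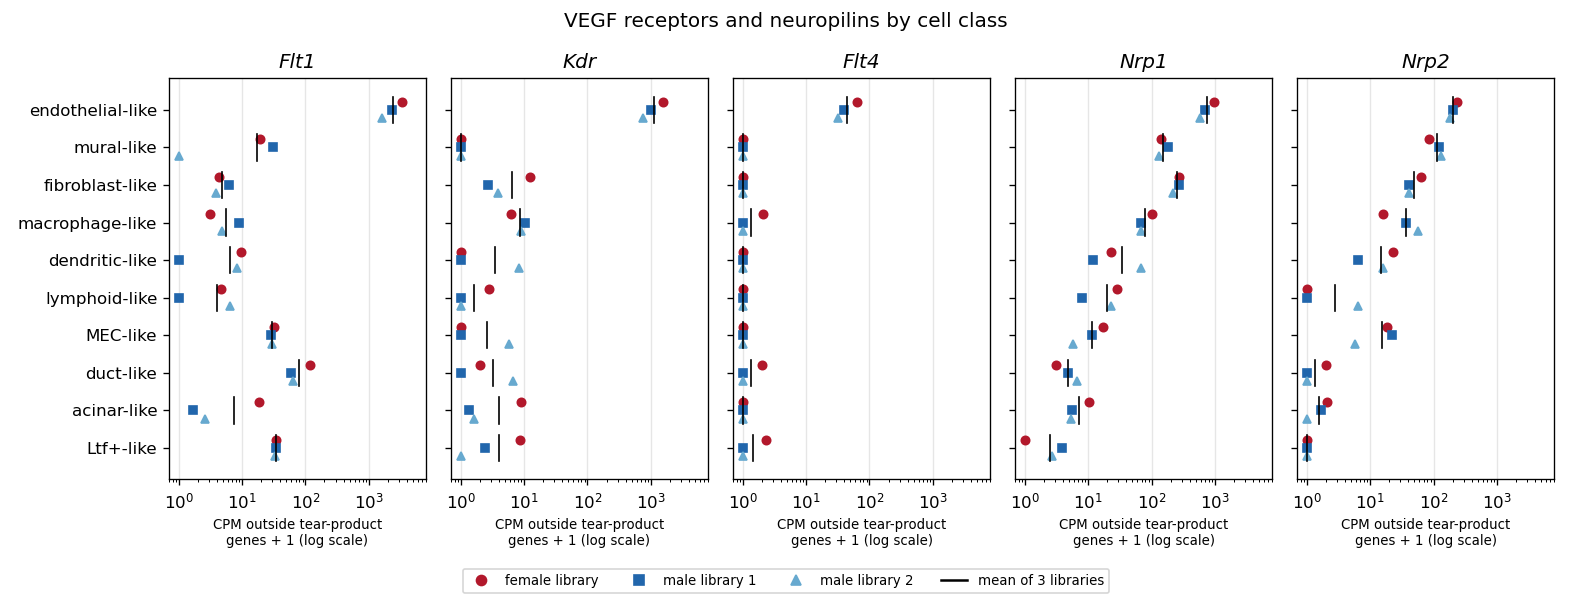
Levels of the 5 receptors in 10 cell classes of the LG, in CPM outside tear-product genes with 1 added, on a log axis. Each point is 1 library and the bar is the mean of 3 libraries; *Flt1*, *Kdr* and *Flt4* are highest in endothelial-like cells in every library, while *Nrp1* and *Nrp2* also show in mural-, fibroblast- and macrophage-like cells.

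The neuropilins were spread more widely. *Nrp1* had 979, 700 and 591 CPM in endothelial-like cells, 275, 274 and 218 CPM in fibroblast-like cells, 139, 181 and 132 CPM in mural-like cells and 99.0, 68.0 and 68.2 CPM in macrophage-like cells of the female, male 1 and male 2 libraries. These classes kept that order in CPM in every library without overlap. Endothelial-like cells were above fibroblast-like cells by 1.48 ± 0.21 (SE) on the log2 scale (edgeR adjusted p = 1.05e-07). The places of mural-like cells depend on the scaling. Scaled by the trimmed mean of M values (TMM), as in the tests, fibroblast-like cells were above mural-like cells by 1.26 ± 0.33 (SE, log2, adjusted p = 0.00534). Scaled by UMIs outside tear-product genes, as in the CPM, the difference was 0.90 ± 0.34 (adjusted p = 0.0745). For macrophage- minus mural-like cells it was 0.09 ± 0.36 (SE, adjusted p = 0.891) with TMM, of the opposite sign to the CPM, and -0.80 ± 0.37 (adjusted p = 0.105) with the scaling of the CPM, so that this pair was called under neither. In acinar-, duct- and *Ltf*+-like cells *Nrp1* averaged 6.09 CPM or less, and it was called lower there and in MEC-like cells, where 18.9, 7.89, 11.5 and 10.5% of all genes tested were called lower. *Flt1* was called lower in acinar-, fibroblast-, lymphoid- and macrophage-like cells, the last 3 with 12.3, 9.75 and 10.9% of genes called lower, and *Nrp2* in *Ltf*+-like cells.

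*Nrp2*, the co-receptor that favours *Vegfc*, had 232, 203 and 178 CPM in endothelial-like cells of the female, male 1 and male 2 libraries. Mural-like cells followed with 83.2, 121 and 132 CPM, on only 9, 4 and 4 UMIs. The difference was 1.34 ± 0.47 (SE, log2, edgeR adjusted p = 0.0380) with TMM and 1.04 ± 0.51 (adjusted p = 0.179) with the scaling of the CPM. Fibroblast-like cells had 63.2, 39.8 and 40.2 CPM, and macrophage-like cells 14.7, 36.4 and 56.5 CPM. Mural-like cells lay above both in every library without overlap in CPM, but with TMM neither pair was called (adjusted p = 0.540 and 0.236). With the scaling of the CPM macrophage-like cells were below mural-like cells by 1.80 ± 0.62 (SE, log2, adjusted p = 0.0258). Fibroblast- and macrophage-like cells overlapped and were not called (adjusted p = 0.509). All 45 pairs of classes were tested, with p adjusted over genes within each pair.

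*Nrp1* and *Nrp2* were both called higher than the mean of the other classes in fibroblast-, macrophage- and mural-like cells, where 27.9, 27.2 and 10.2% of all genes tested were called higher. The call depends on the reference. Against all other cells, which include the endothelial ones, fibroblast-like cells were still higher (*Nrp1* 1.87 ± 0.34 and *Nrp2* 1.08 ± 0.25, SE, log2, adjusted p = 0.00269 and 0.00598). Macrophage-like cells (0.28 for *Nrp1* and 0.88 for *Nrp2*) and mural-like cells (0.11 and 1.51) were not called.

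Within the stroma the neuropilins varied by subset, which is given as a description. Parenchymal fibroblast-like cells had 321, 313 and 277 CPM of *Nrp1* in the female, male 1 and male 2 libraries, and adventitial fibroblast-like cells had 140, 182 and 85.3 CPM, so the subsets did not overlap. The adventitial name, here and below, covers a pair of clusters. The smaller (186 cells, led by *Pi16*) scored 4.756 for adventitial markers. The larger (365 cells, led by *Cxcl13*) scored 2.055 for adventitial and 1.858 for parenchymal markers, so its name is less sure. Among macrophage-like cells, the *Mrc1*+ M2-like subset had 304, 240 and 184 CPM of *Nrp1* on 20, 11 and 4 UMIs. *Trem2*+-like macrophages had 110, 98.1 and 89.7 CPM and M1-like macrophages 88.3, 33.6 and 49.5 CPM. *Nrp2* was also highest in the M2-like subset, at 75.9, 109 and 230 CPM on 5 UMIs in each library.

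A low level of *Flt1* lay outside the vessels. Duct-like cells had 346, 15 and 11 UMIs in the female, male 1 and male 2 libraries, where the free RNA of the suspension, scaled by its tear-product share, would give 3.15, 0.214 and 0.109 UMIs. *Ltf*+-like cells averaged 32.8 ± 1.05 CPM and MEC-like cells 28.8 ± 1.42 CPM (SD, n = 3 libraries). Duct-like cells lay above both in every library without overlap, by 1.65 ± 0.58 over MEC-like and 1.21 ± 0.51 over *Ltf*+-like cells (SE, log2), but neither pair was called (edgeR adjusted p = 0.0607 and 0.0906). *Flt1* of the *Ltf*+-like class lay in its larger cluster (39.6, 38.6 and 38.7 CPM), and the cluster led by *Amy1* had 3 UMIs in the female library and 0 in both male libraries. Duct-like cells were called higher than the mean of the other classes by 2.31 ± 0.40 (SE, log2, adjusted p = 1.35e-04), against 18.6% of genes called higher, and lower than all other cells, which include the endothelial-like cells, by 1.35 ± 0.28. *Kdr* had 4 UMIs in the duct-like class and 1 UMI in the MEC-like class.

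Counted over the kept cells, endothelial-like cells held 91.2 ± 2.43% of all *Flt1* UMIs, 95.7 ± 1.99% of *Kdr* and 97.7 ± 4.02% of *Flt4* (SD, n = 3 libraries). They held 49.4 ± 2.57% of *Nrp1*, 49.5 ± 5.86% of *Nrp2* and 54.2 ± 3.90% of *Vegfc*. Fibroblast-like cells came next for *Nrp1*, with 31.8 ± 4.26%. Of *Nrp2* they held 33.2, 18.7 and 15.1% in the female, male 1 and male 2 libraries, and macrophage-like cells held 7.61, 18.7 and 31.2%, so that the next class differed between libraries. For *Vegfa* and *Pgf* the split was mostly epithelial and differed between libraries. Acinar-like cells held 46.1 ± 17.4% of *Vegfa*, and of *Pgf* they held 1.23% in the female library and up to 67.4% in the male libraries. Fibroblast-like cells held 25.3, 10.2 and 4.85% of *Vegfa*, in the female library close to the 26.8% of acinar-like cells. Such shares move with how many cells of each class a suspension yielded, so they describe the libraries and not the whole gland.

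**Figure D2:**
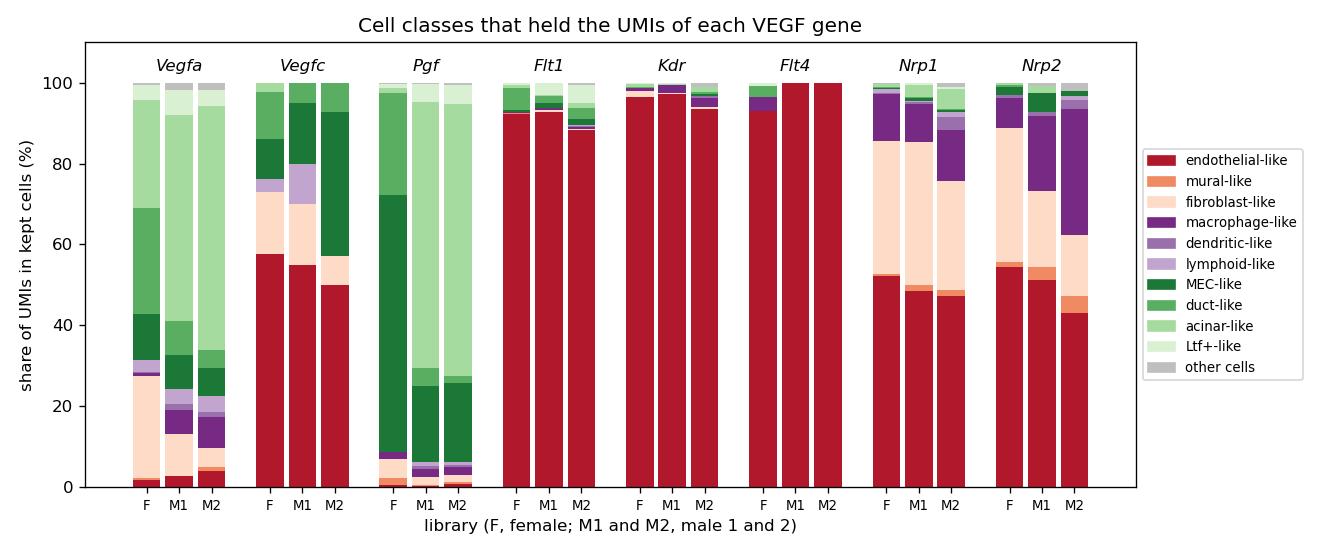
Share of the UMIs of each gene in the kept cells that came from each cell class, in percent, 1 bar per library. *Flt1*, *Kdr* and *Flt4* come almost wholly from endothelial-like cells in the 3 libraries, *Nrp1* and *Nrp2* about equally from endothelial-like and other cells, and *Pgf* from MEC-like cells in the female library and from acinar-like cells in the male libraries.

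With every cell thinned to 1000 UMIs and shallower cells left out (79, 50 and 120 endothelial-like cells), 78.7% of endothelial-like cells in the female library (95% exact binomial interval 75.8 to 81.4%), 56.2% (51.3 to 60.96%) in male library 1 and 50.2% (43.7 to 56.7%) in male library 2 had a *Flt1* UMI. Intervals here cover counting error only. Thinning counts tear-product RNA, which took 35.4, 56.2 and 63.8% of the UMIs in endothelial-like cells of the female, male 1 and male 2 libraries. The thinned shares, those of *Kdr* below included, are therefore not level between libraries in other RNA. Without thinning the shares were 90.4, 65.04 and 53.5%, at a median of 2552, 1380 and 1137 UMIs per cell. In fibroblast-like cells, which serve as the background, the thinned shares were 0.184, 0 and 0.299%, at a median of 3117, 1529 and 1252 UMIs, and the 0 of 595 cells allows up to 0.618%.

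*Kdr* had a UMI in 54.4, 30.3 and 32.4% of the thinned endothelial-like cells of the female, male 1 and male 2 libraries, against 1.04, 0.168 and 0.299% of fibroblast-like cells. Both receptor genes tended to be seen in the same cells. Among endothelial-like cells with a *Flt1* UMI, 61.8, 40.1 and 38.0% also had one of *Kdr*, and among those without, 27.0, 17.8 and 26.7% did. *Nrp2* was not seen more often with *Nrp1*, at 12.97, 5.88 and 9.23% of cells with and 13.3, 10.0 and 9.09% of cells without a *Nrp1* UMI. These shares are descriptions, as each cell shows only part of its RNA. They also pool vessel subsets whose levels of these genes differ, as given below, and pairing within a subset was not tested.

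Endothelial-like cells fell into capillary-like cells (573, 309 and 218 cells in the female, male 1 and male 2 libraries), venous-like cells (181, 126 and 106) and arteriolar-like cells (78, 18 and 23), beside 148 cells of a cluster with no name. The next question was whether the receptors differ along the vessel tree. Capillary-like cells had more *Flt1*, *Kdr* and *Nrp1* than venous-like cells and less *Nrp2*. The other 4 genes were too scarce for the filter on low counts. So 3 of the 4 genes tested were called higher and 1 lower, where 10.1 and 13.7% of the 2074 genes tested in this comparison were called higher and lower.

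*Flt1* had 4264, 2822 and 2291 CPM in capillary-like cells and 1380, 1336 and 828 CPM in venous-like cells of the female, male 1 and male 2 libraries. The groups did not overlap, and the log2 difference was 1.25 ± 0.18 (SE, edgeR adjusted p = 2.26e-10). *Kdr* had 2021, 1286 and 1055 CPM in capillary-like cells and 568, 423 and 436 CPM in venous-like cells, a log2 difference of 1.46 ± 0.22 (adjusted p = 3.05e-10).

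*Nrp1* went with them, at 1278, 872 and 868 CPM in capillary-like and 314, 365 and 276 CPM in venous-like cells (log2 difference 1.55 ± 0.23, SE, adjusted p = 4.36e-10). *Nrp2* went the other way. It had 169, 164 and 180 CPM in capillary-like and 501, 320 and 203 CPM in venous-like cells, which is 1.34 ± 0.23 lower on the log2 scale in capillary-like cells (SE, adjusted p = 1.07e-07). In male library 2 the difference was small, on 23 and 14 UMIs, and without the female library *Nrp2* was not called (log2 difference -0.82).

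**Figure D3:**
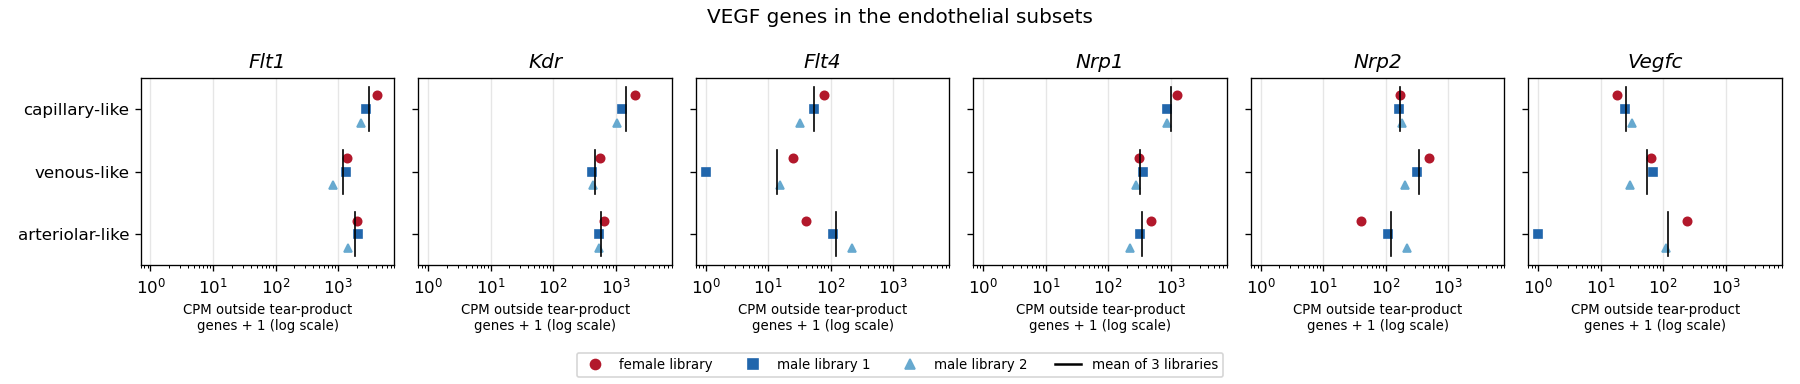
Levels of the 5 receptors and *Vegfc* in capillary-, venous- and arteriolar-like cells, in CPM outside tear-product genes with 1 added, on a log axis. Each point is 1 library and the bar is the mean of 3 libraries; *Flt1*, *Kdr* and *Nrp1* are highest in capillary-like cells in every library, and the arteriolar-like points of the male libraries rest on 18 and 23 cells.

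Arteriolar-like cells had less of the same 3 receptors than capillary-like cells. *Flt1* had 2024, 2065 and 1431 CPM there in the female, male 1 and male 2 libraries, *Kdr* 659, 544 and 550 CPM and *Nrp1* 482, 326 and 220 CPM. The log2 differences from capillary-like cells were -1.06 ± 0.21, -1.60 ± 0.27 and -1.55 ± 0.29 (SE, edgeR adjusted p = 1.60e-05, 1.68e-07 and 3.35e-06), against 10.8% of genes called lower in this comparison. For *Flt1* the call was lost without the female library (-0.75).

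*Nrp2* was also called lower in arteriolar- than in capillary-like cells (-1.80 ± 0.50, SE, log2, adjusted p = 0.00406), but on 5, 1 and 2 UMIs, and the libraries did not share a direction in CPM (40.2, 109 and 220 CPM against 169, 164 and 180). It lost its call without the female library (-0.24), without the replicate block (-1.62) and with DESeq2 (-1.57). Against venous-like cells *Nrp2* was lower in arteriolar-like cells with a log2 difference of -3.14 ± 0.46 (SE, adjusted p = 1.40e-10), where 15.7% of genes were called lower. Here too the libraries did not share a direction in CPM, with 40.2, 109 and 220 CPM in arteriolar- against 501, 320 and 203 CPM in venous-like cells.

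The scarcer genes give values only. *Flt4* had 90, 11 and 4 UMIs in capillary-like cells and 9, 0 and 1 UMIs in venous-like cells, at 77.5, 53.0 and 31.3 CPM against 24.0, 0 and 14.5 CPM. The 0 of male library 1 allows up to 34.3 CPM, taking 3 UMIs as the floor. Arteriolar-like cells had 40.2, 109 and 220 CPM of *Flt4* on only 5, 1 and 2 UMIs. Their mean lay above that of capillary-like cells, so *Flt4* is not read as highest in either subset. *Vegfc* had 17.2, 24.1 and 31.3 CPM in capillary-like cells and 63.9, 68.5 and 29.0 CPM in venous-like cells. In arteriolar-like cells of the female library *Vegfc* reached 241 CPM on 30 UMIs, and the male libraries had 0 and 1 UMIs there.

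Turning to the ligands, *Vegfa* and *Pgf* had their highest levels in epithelial classes and *Vegfc* in endothelial-like cells. Over all kept cells *Pgf* had 2222 UMIs, *Vegfa* 991 and *Vegfc* 164. *Vegfa* had 72.4, 62.1 and 75.9 CPM in MEC-like cells, 49.5, 68.8 and 56.8 CPM in duct-like cells, 50.8, 36.0 and 42.7 CPM in acinar-like cells and 36.0, 38.1 and 31.6 CPM in fibroblast-like cells of the female, male 1 and male 2 libraries. Lymphoid-like cells came between the last of these, with a mean of 40.2 ± 21.8 CPM (SD, n = 3 libraries) on 34 UMIs. None of these neighbours in the order was called, with edgeR adjusted p of 0.879 for duct- against MEC-like, 0.855 for acinar- against duct-like, 0.499 for acinar- against lymphoid-like and 0.879 for fibroblast- against lymphoid-like cells. Endothelial-like cells had 10, 6 and 9 UMIs, at 5.79, 19.4 and 40.0 CPM. Free RNA of the suspensions had 27.9, 23.0 and 24.7 CPM. It was estimated at only 6.12, 11.3 and 16.4% of the UMIs outside tear-product genes in these cells. In their capillary-like subset *Vegfa* had 6, 2 and 7 UMIs where free RNA would give 1.74, 0.531 and 0.333. Against all other cells *Vegfa* differed in endothelial-like cells by -1.39 ± 0.40 (SE, log2, edgeR adjusted p = 0.00652), a call not made against the mean of the classes (adjusted p = 0.197).

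*Vegfa* was called higher in MEC-like cells than in the mean of the other classes (1.38 ± 0.46, SE, log2, adjusted p = 0.0268) and than in all other cells (0.89 ± 0.29, adjusted p = 0.0176). The call was lost without male library 1 (1.502). In acinar-like cells the value was 0.95 ± 0.37 (adjusted p = 0.0395), with 32.7% of genes called higher. This call was lost under 8 of the 14 alternatives and turned to -1.59 when total UMIs replaced TMM. Tear-product RNA made up 89.9 to 90.7% of the UMIs in acinar-like cells.

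Acinar-like cells fell into 5 clusters, and *Vegfa* was uneven among them. Clusters 14 and 4 are singled out after their values were seen. The cluster led by *Gm26917*, *Tex15* and *Tfrc* (cluster 14, 164, 158 and 183 cells) had 153, 136 and 180 CPM in the female, male 1 and male 2 libraries, on 20, 9 and 11 UMIs. Cluster 4, led by *Prom2* and *Qsox1*, had 80.8, 58.7 and 66.7 CPM, and the other 3 clusters lay between 23.4 and 37.6 CPM. The order holds over all UMIs too, at means of 51.7 and 12.2 CPM for clusters 14 and 4 and up to 6.35 CPM for the others. The clusters differ in their share of UMIs outside tear-product genes (33.9% in cluster 14 and 17.7% in cluster 4, against 7.92 to 18.7%), and the part of this in the *Vegfa* difference was not tested.

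Adventitial fibroblast-like cells had 63.3, 76.0 and 36.5 CPM of *Vegfa* and parenchymal fibroblast-like cells 28.3, 28.4 and 32.1 CPM. The difference was small in male library 2, on 3 and 8 UMIs.

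*Pgf*, the ligand that binds *Flt1* but not *Kdr*, had its highest mean in MEC-like cells, at 424, 607 and 673 CPM in the female, male 1 and male 2 libraries, on 363, 176 and 142 UMIs. It was called higher than in the mean of the other classes by 4.26 ± 0.43 (SE, log2, edgeR adjusted p = 1.27e-07), against 21.3% of genes called higher in this comparison. After thinning, 24.3, 23.7 and 27.9% of MEC-like cells had a *Pgf* UMI. In CPM the male libraries were higher, at 1.43 times (95% exact interval 1.19 to 1.72) and 1.59 times (1.30 to 1.93) the female library. Tear-product RNA took 29.4, 51.3 and 50.6% of the UMIs in these cells, and thinning counts it. MEC-like cells were also above duct- and acinar-like cells, which lay lower by 2.65 ± 0.64 and 2.65 ± 0.61 (SE, log2, adjusted p = 0.00642 and 0.00109). The gap to acinar-like cells was unlike between libraries, as *Pgf* there was 82.5 and 62.8 times the female level in the male libraries. The fitted value for acinar-like cells thus stands for unlike gaps, and the mean of the other classes includes these cells. Against all other cells *Pgf* was not called in MEC-like cells (3.06 ± 0.82, adjusted p = 0.0668).

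In acinar-like cells *Pgf* split the libraries. The female library had 7 UMIs in 998 cells (2.42 CPM, 95% exact Poisson interval 0.973 to 4.99), male library 1 had 611 UMIs in 1645 cells (200 CPM, 184 to 216) and male library 2 had 488 UMIs in 2152 cells (152 CPM, 139 to 166). The ratio to the female library was 82.5 (95% exact interval 39.8 to 206) for male library 1 and 62.8 (30.3 to 157) for male library 2, from counting error alone. With 1 female library there is no replicate check of the difference, and sex, sequencing core and preparation day coincide in it.

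The split ran through every acinar-like cluster. Cluster by cluster, the female library had between 0 and 22.0 CPM on 0 to 3 UMIs, male library 1 between 194 and 231 CPM and male library 2 between 143 and 191 CPM. In thinned cells, 0.308% of the acinar-like cells of the female library (0.0636 to 0.897%), 3.84% of those of male library 1 (2.96 to 4.89%) and 2.46% of those of male library 2 (1.83 to 3.22%) had a *Pgf* UMI. The cluster of the *Ltf*+-like class led by *Amy1* showed the split as well, with 5.16, 159 and 137 CPM on 1, 15 and 15 UMIs, against 8.61, 41.9 and 38.7 CPM in the larger cluster. *Ltf* in the *Amy1*-led cluster ranged from 16.7 to 875 CPM of all UMIs over the libraries, so its cells may not be alike across them. Free RNA carried the same split, with 6.32, 170 and 138 CPM of *Pgf* outside tear-product genes. *Vegfa* in acinar-like cells did not split in this way, with ratios of 0.708 (0.548 to 0.912) and 0.840 (0.660 to 1.07) to the female library.

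**Figure D4:**
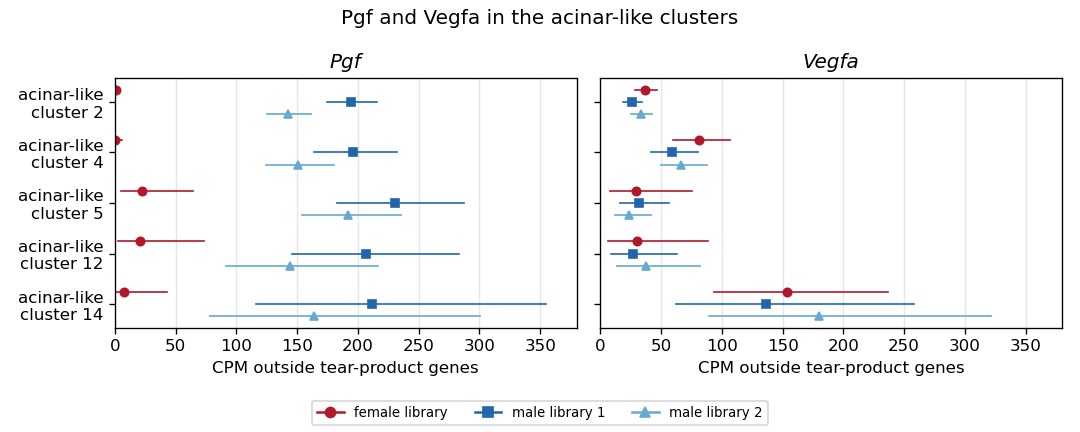
Levels of *Pgf* and *Vegfa* in the 5 acinar-like clusters, in CPM outside tear-product genes, 1 point per library with its 95% exact Poisson interval. *Pgf* is at most 22.0 CPM in the female library and at least 143 CPM in the male libraries in every cluster, while *Vegfa* is highest in cluster 14 in the 3 libraries.

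In the other classes *Pgf* of the male libraries has to be read beside the free RNA. Duct-like cells had 49.5, 161 and 62.5 CPM, on 144, 42 and 11 UMIs where free RNA would give 0.940, 4.92 and 2.78. Macrophage-like cells had 10, 18 and 15 UMIs where free RNA would give 1.20, 9.84 and 8.55, and endothelial-like cells 2, 3 and 5 UMIs against 0.668, 5.97 and 5.09. *Pgf* was called lower in endothelial-like cells than in the mean of the other classes (adjusted p = 0.0397), a call that was lost under 7 of the 14 alternatives and held against all other cells (-3.83 ± 0.37, SE, log2, edgeR adjusted p = 1.19e-10). Mural-like cells had 11, 1 and 4 UMIs, at 102, 30.2 and 132 CPM.

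*Vegfc*, the *Flt4* ligand, was scarce, with 164 UMIs in all. Endothelial-like cells had 75, 11 and 7 UMIs in the female, male 1 and male 2 libraries, which is 43.4, 35.5 and 31.1 CPM. They were above all other cells by 3.98 ± 0.42 (SE, log2, edgeR adjusted p = 6.07e-10) and above MEC-like cells, the next class at 15.2, 10.3 and 23.7 CPM, by 1.37 ± 0.54 (adjusted p = 0.0455, and 0.0598 with the scaling of the CPM). MEC-like cells were themselves above all other cells by 1.75 ± 0.58 (adjusted p = 0.0190). *Ltf*+-, macrophage-, dendritic- and mural-like cells had no *Vegfc* UMI. Of these, mural-like cells had the fewest UMIs outside tear-product genes (108156, 33108 and 30254), so their 0 bounds the level least. Small excesses in duct- and fibroblast-like cells over the mean of the classes, on 17 UMIs and 24 UMIs, turned to -0.35 and -0.20 against all other cells and are not read as higher.

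**Figure D5:**
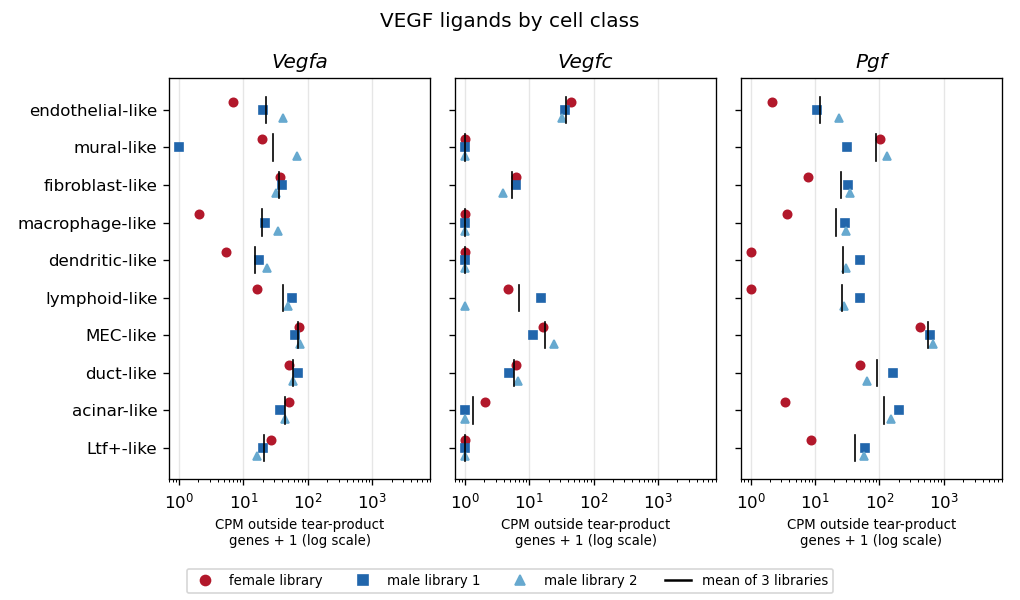
Levels of the 3 ligands in 10 cell classes, in CPM outside tear-product genes with 1 added, on a log axis. Each point is 1 library and the bar is the mean of 3 libraries; *Pgf* is highest in MEC-like cells and separates the female from the male libraries in acinar-like cells, and *Vegfc* is highest in endothelial-like cells.

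The other ligands of the family were counted too. *Vegfb*, a ligand of *Flt1*, was low, with means from 11.5 to 50.8 CPM over the 10 classes, and was not called in endothelial-like cells. Its highest mean was in MEC-like cells (49.0, 65.5 and 37.9 CPM), but they did not lead in every library. Mural-like cells were above them in the female library, on 9 UMIs, and duct-like cells were among those above them in male library 2, on 11 UMIs. Acinar-like cells (22.8, 8.83 and 7.48 CPM) lay below MEC-like cells in every library. *Vegfd*, which like *Vegfc* binds *Flt4*, was in fibroblast-like cells, with 76.8 to 88.0% of its UMIs. Adventitial fibroblast-like cells had 81.7, 122 and 122 CPM and parenchymal ones 4.20, 9.48 and 12.0 CPM in the female, male 1 and male 2 libraries. A small further subset (54, 31 and 23 cells) had 22.4, 82.8 and 295 CPM, on 3, 2 and 5 UMIs.

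The levels of all 5 receptors in endothelial-like cells ran in the same order of libraries, highest in the female library and lowest in male library 2. Free RNA was estimated at 6.12, 11.3 and 16.4% of the UMIs outside tear-product genes in these cells. With it subtracted, *Flt1* had 3591, 2648 and 1939 CPM and *Kdr* 1676, 1127 and 908 CPM, so the order stayed for both. For *Flt4* the step between the male libraries rests on 12 and 7 UMIs. Within the vessel subsets the order was not general. In capillary-like cells only *Nrp2* broke it, at 169, 164 and 180 CPM. In venous-like cells *Kdr*, *Nrp1* and *Flt4* broke it, and in arteriolar-like cells all receptors but *Nrp1* did. The order in the whole class, too, cannot be told apart from core and day.

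Pathway genes were counted from lists that hold no VEGF ligand or receptor named above, except *Vegfb* and *Vegfd* as the other ligands. In endothelial-like cells, 9 of 10 tested Notch and angiopoietin genes of the vessel were called higher and none lower, where 23.2% of all genes tested were called higher (median log2 difference 6.71, against 0.05 over all genes). As this list was made of vessel genes, the count describes the class and is no test of the pathway. Against all other cells *Tie1* was higher by 9.12 ± 0.38, *Aplnr* by 9.17 ± 0.45, *Esm1*, a marker of vessels under VEGF signalling, by 8.09 ± 0.45 and *Tek*, the angiopoietin receptor, by 5.30 ± 0.34 (SE, log2).

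Of the 9 tested semaphorins and plexins that use neuropilins, 6 were higher in endothelial-like cells and none lower, against 23.2 and 9.69% of all genes tested. *Sema3g*, *Plxna4*, *Plxna2* and *Sema3f* led, at 6.87 ± 0.46, 4.13 ± 0.49, 3.80 ± 0.28 and 3.08 ± 0.46 over all other cells (SE, log2). MEC-like cells had 5 of the 9 higher, against 21.3% of all genes. They were led by *Sema3d* with 105 ± 26.2 CPM, *Sema3b* with 35.5 ± 7.57 CPM and *Sema3c* with 154 ± 33.5 CPM (SD, n = 3 libraries). *Sema3f* was shared by both classes, with 57.5 ± 10.4 CPM in endothelial- and 36.0 ± 15.8 CPM in MEC-like cells.

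Genes that relay VEGF receptor signals are used by most cells, and here 14 of 30 were called higher in endothelial-like cells and 3 lower, against 23.2 and 9.69% of all genes (median log2 difference 0.56). *Nos3*, the endothelial nitric oxide synthase, was higher than in all other cells by 6.18 ± 0.47, *Hspb1* by 2.84 ± 0.18 and *Rcan1*, a calcineurin inhibitor that VEGF induces, by 2.38 ± 0.24, and *Src* was lower (-3.16 ± 0.60, SE, log2). *Hspb1* was nearly as high in MEC-like cells (1711 CPM against 1735 CPM) and *Rcan1* in macrophage-like cells (133 against 154 CPM). Of the 14 tested hypoxia-inducible genes and regulators, 6 were called higher and none lower, against the same shares of all genes. *Epas1*, which encodes HIF-2α, was higher by 3.47 ± 0.22, *Ndrg1* by 3.52 ± 0.22, *Pfkfb3* by 1.42 ± 0.38 and *Egln1* by 0.63 ± 0.24 (SE, log2, against all other cells). *Epas1* averaged more in mural-like cells (689 CPM against 666 CPM) and *Pfkfb3* in dendritic-like cells (67.2 against 29.9 CPM).

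Between capillary- and venous-like cells, fewer pathway genes could be tested. *Esm1* had 197 UMIs in capillary-like cells and none in venous-like cells. *Dll4*, a Notch ligand that VEGF induces, had 72.2 ± 15.2 CPM against 8.65 ± 7.65 CPM (SD, n = 3 libraries), and *Sema3g* 36.1 ± 14.8 against 5.73 ± 7.73 CPM. Neither is particular to capillary-like cells. Arteriolar-like cells averaged 661.5 ± 215 CPM of *Sema3g* and, on 14 UMIs, 104.6 ± 108.9 CPM of *Dll4*. *Rcan1* went the other way, with 20.9 ± 9.71 CPM in capillary-like and 511 ± 72.0 CPM in venous-like cells, a log2 difference of -5.04 ± 0.30 (SE, edgeR adjusted p = 9.24e-60). *Hif1a* and *Ndrg1* were lower in capillary-like cells (-1.36 ± 0.24 and -0.92 ± 0.22), and *Egln1* and *Epas1* higher (0.97 ± 0.34 and 0.62 ± 0.23). The mean of *Epas1* was higher still in arteriolar-like cells (1397 CPM against 724 CPM in capillary-like cells).

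The genes whose pattern was most like each member were found by Pearson's r over 30 class-by-library sums, on log2(CPM + 10) centred by library. The sums share libraries and free RNA, so r is a description. *Kdr* was most like *Tie1*, *Emcn* and *Hoxd8* (r = 0.989, 0.989 and 0.988), *Flt4* like *Ptprr*, *C1qtnf9* and *Ushbp1* (0.998, 0.998 and 0.997) and *Flt1* like *Afap1l1*, *Prom1* and *Tdrp* (0.946, 0.945 and 0.934). *Nrp1* was most like *Tfpi*, *Slfn5* and *Nrp2* (0.957, 0.9495 and 0.923), and *Nrp2* like *Nrp1*, *Plxnd1* and *Tfpi* (0.923, 0.910 and 0.9003). *Vegfc* was most like *Sema6a*, *Plscr2* and *Slco2a1* (0.921, 0.917 and 0.909), and *Pgf* like *Pdgfc*, *Id4* and *Carmn* (0.870, 0.853 and 0.8498). For *Vegfa* the closest, *Pard3*, *Psph* and *Agap3*, reached 0.771, 0.739 and 0.726.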

How the data were processed

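Single-cell RNA-seq of dissociated mouse LG was made with 10x Genomics 3′ chemistry. The authors deposited raw UMI counts per gene and barcode, made with Cell Ranger 6.1.2 on mm10 per the labels' processing notes, for all barcodes and for barcodes called as cells, before their own correction for free RNA and doublets. The file headers name that version for the called barcodes and Cell Ranger 4 for all barcodes, but every called barcode held identical counts in both. The authors' barcode and gene lists pair counts with Ensembl IDs and symbols.

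Called barcodes were kept above 500 UMIs and 200 genes and below 15% of mitochondrial UMIs (8298, 5582 and 5712 in the female, male 1 and male 2 libraries). Doublets were scored with scrublet in scanpy 1.11.5, and the top scores were removed up to 0.8% per 1000 barcodes (646, 287 and 315 cells). Counts were normalized with SCTransform, integrated by canonical correlation analysis and clustered in Seurat 5.3.0, with 330 genes (the VEGF genes and pathway lists among them) left out of the features. UMIs were summed by class and library and tested with edgeR 4.0.16 (filterByExpr, TMM, glmQLFit, glmQLFTest, two-sided) in R 4.3.3, with library as a block, since the classes of 1 library share a suspension. P-values were adjusted by the Benjamini-Hochberg method over all genes of a comparison. With 1 female library, no test of sex was made. Pathway genes were named as up to 4 called genes of each list with the largest change, and like genes as the 3 with the highest r among genes with at least 100 UMIs. The free RNA profile came from uncalled barcodes with over 300 and up to 2000 UMIs, a range chosen after the barcodes had been looked at. The counts were not corrected for it except as an alternative. The fits were also run on simulated counts drawn from a single shared profile, without library effects or free RNA. That run checks the code and cannot show how well the fits suit these data. DESeq2 1.42.0 and the other alternatives are given at the end. The genes studied and all lists were chosen with earlier results of these data known.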

Additional observations from a re-analysis of the deposited data

Results flagged for a closer look

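*Pgf* in acinar-like cells was below the mean of the other classes in the female library and above it in both male libraries, with log2 ratios of -4.29, 0.81 and 0.36 in the female, male 1 and male 2 libraries (1 CPM added to both sides). Every library of one sex therefore lay on one side and every library of the other sex on the other. The difference was not tested, as there is 1 female library and sex, core and day coincide. The level of *Pgf* in free RNA moved in the same way (6.32, 170 and 138 CPM), and its part in the result was not tested.

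*Nrp2* in fibroblast-like cells was above the mean of the other classes in the female library and just below it in the male libraries, with log2 ratios of 0.60, -0.11 and -0.11. This difference was not tested either. The mean of the other classes is led by endothelial- and mural-like cells, and the mural-like values rest on 9, 4 and 4 UMIs.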

How the results depend on the processing

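The 6 genes called higher in endothelial-like cells numbered 6 under 12 of 14 alternatives, 5 with DESeq2 and 4 without the female library, where *Flt4* and *Vegfc* fell under the filter. Calls of higher levels in the other 9 classes numbered 14 (5 against all other cells, a reference that also weights the classes by their UMIs, 9 to 13 when a library was left out, the 9 without male library 1, and 10 to 18 otherwise). The replicate block is the library, whose classes share a suspension. Without the replicate block these counts were 6 and 13. Between capillary- and venous-like cells 4 genes were called (3 to 6 with a library left out, 4 without the replicate block and 6 without a filter). Between arteriolar- and capillary-like cells 4 were called (2 to 5 with a library left out, the 2 without the female library, and 3 without the replicate block). Pathway genes called higher in endothelial-like cells numbered 35, and 24 to 39 under the alternatives.

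Over 38 single calls and 479 refits, 423 kept direction and call, 51 lost the call and 5 turned. Those that turned were *Vegfa* and *Pgf* in acinar-like cells with total UMIs in place of TMM (-1.59 and -1.10), where tear-product RNA fills the totals, and *Vegfc* in duct-like cells (-0.35), *Flt1* in duct-like cells (-1.35) and *Vegfc* in fibroblast-like cells (-0.20) against all other cells. Over 17 pairs of classes scaled by UMIs outside tear-product genes, 3 lost the call, 1 gained it (*Nrp2* in macrophage- against mural-like cells) and *Nrp1* in macrophage- against mural-like cells, not called under either, turned from 0.09 to -0.80. With the *Amy1*-led cluster of the *Ltf*+-like class left out, all 30 single calls made over the classes were kept. Over all UMIs the ratio of *Pgf* in acinar-like cells to the female library was 85.8 for male library 1 and 60.2 for male library 2. Alternatives for arteriolar-like cells, the pathway lists, the pairs and that cluster were added after the data had been seen. Depth limits the scarce genes, with 134 UMIs for *Flt4* and 164 for *Vegfc*, and the arteriolar-like cells of the male libraries.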

Other observations

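The free RNA of the suspensions also held the VEGF genes. In uncalled barcodes *Vegfa* had 27.9, 23.0 and 24.7 CPM outside tear-product genes in the female, male 1 and male 2 libraries, *Flt1* 21.1, 7.41 and 5.40 CPM and *Kdr* 11.1, 4.29 and 4.37 CPM. *Pgf* was at 6.32, 170 and 138 CPM there.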
